A study of Mus musculus with 4 samples.

Results

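Vascular endothelial growth factors and angiopoietins are the secreted ligands through which a growing tissue addresses its vessels, and this account follows 10 genes of the pathway through fetal mouse leg muscle. They were chosen by name as members of the pathway, out of 32285 genes in the feature table. They comprised the ligands *Vegfa*, *Vegfc* and *Vegfd*, the Vegf receptors *Flt1* (Vegfr1), *Kdr* (Vegfr2) and *Flt4* (Vegfr3), the angiopoietins *Angpt1* and *Angpt2*, and their receptors *Tek* (Tie2) and *Tie1*. All 10 genes had UMIs in each library. The questions were which cells of the muscle were the source of each ligand, which cells carried each receptor, and whether either differed between genotypes.

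As background, VEGFA drives the growth and permeability of blood vessels mainly through KDR, while FLT1 binds VEGFA tightly and can act as a decoy. VEGFC and VEGFD signal through FLT4 and guide lymphatic and sprouting blood vessels. ANGPT1, usually made by cells that surround the vessel, activates TEK and quiets the endothelium, and ANGPT2 can act as its antagonist, with TIE1 as a partner receptor that tunes TEK.

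The study examined leg muscles of wild-type (WT) fetuses and of littermates lacking the long non-coding RNA *SYISL* (knockout, KO), collected at E18.5. The muscle was dissociated with trypsin and DNase I, and single cells were profiled by droplet-based 3′ RNA sequencing, in which each transcript is counted by its unique molecular identifier (UMI). There were 2 WT and 2 KO libraries, named WT1, WT2, KO1 and KO2 here. All fetuses came from heterozygous mothers, and how many fetuses entered each library was not stated, so that p-values measure the spread between libraries only.

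Of 41741 deposited cells, 36969 passed the filters, 8515 from WT1, 8177 from WT2, 9816 from KO1 and 10461 from KO2. The median was 9118 to 11427 UMIs per kept cell and was higher in both WT libraries than in either KO library. The KO2 library stood apart in that 98.2% of its cells had an *Xist* UMI, against at most 0.0587% in the other libraries, and 1.00% had a Y-linked UMI, against 85.8% to 89.9%. The transcripts of KO2 were thus those of female cells and those of the other libraries of male cells, so differences between genotypes also hold a difference in sex through KO2, and values without KO2 compare male libraries only. Cell barcodes shared between libraries numbered 124. *SYISL* itself was not analysed here. Cells were grouped into clusters without using any of the 10 genes or the other listed pathway genes, and clusters were called X-like from marker genes. FAP-like cells, the fibro-adipogenic progenitors of the muscle connective tissue, formed the largest class with 18850 cells. Endothelial-like cells numbered 1342 and carried all 8 of the endothelial markers examined. Smooth muscle or pericyte-like cells, called mural cells from here on, numbered 1749.

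Levels are in CPM, a gene's UMIs per 1000000 UMIs counted in the same class and library. Since UMIs were taken from transcript ends and not scaled for length, levels were compared between cells and not between genes. The level of each gene in every class and library is drawn in a plot by class.

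**Figure D1:**
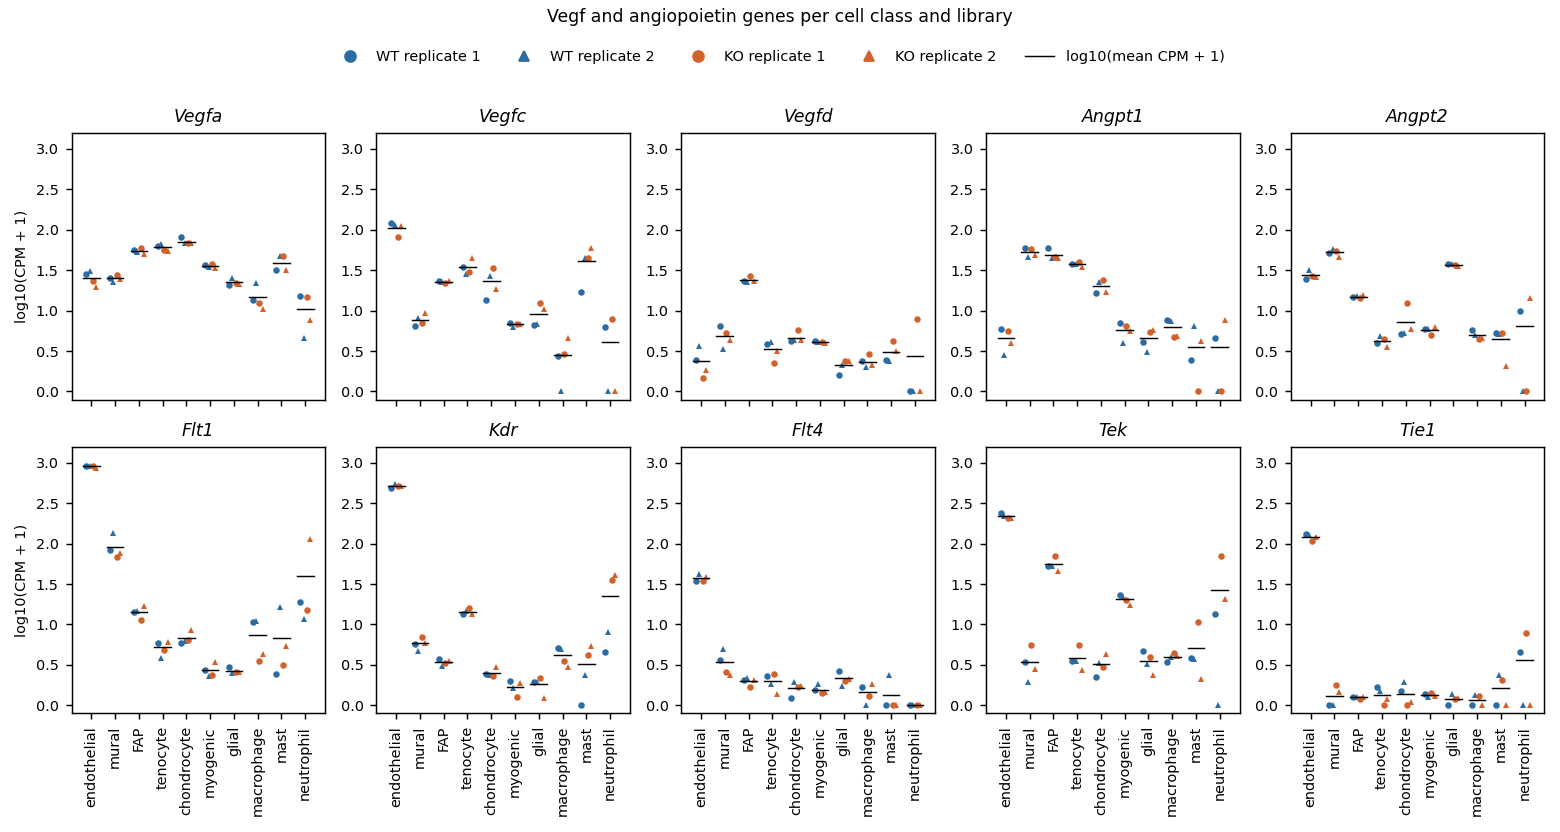
Level of the 10 genes in the cell classes, as log10(CPM + 1). Circles are replicate 1 and triangles replicate 2, blue is WT and orange KO, the bar is log10 of the mean CPM of the 4 libraries plus 1, and mural stands for smooth muscle or pericyte-like. *Flt1*, *Kdr*, *Flt4*, *Tek*, *Tie1* and *Vegfc* were highest in endothelial-like cells, with means of 900, 515, 36.5, 216, 121 and 105 CPM, while *Vegfa* was highest in chondrocyte-like cells at 70.6 CPM and *Vegfd* in FAP-like cells at 22.8 CPM.

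*Vegfa*, the main growth signal for blood vessels, was broadly detected. Its level in chondrocyte-like cells was 80.3 and 67.4 CPM in WT1 and WT2 and 66.9 and 67.8 CPM in KO1 and KO2. Tenocyte-like cells followed, with 62.5, 66.2, 54.6 and 54.3 CPM in the same order. FAP-like cells had 55.1, 52.4, 57.7 and 49.8 CPM, a range that overlapped with that of tenocyte-like cells. The lowest chondrocyte-like value was just above the highest tenocyte-like value. The level was lower in myogenic-like cells, 34.4 ± 1.69 CPM (SD, n = 4 libraries), and in endothelial-like cells, 24.6 ± 4.96 CPM. The macrophage-like class had 13.6 ± 5.07 CPM, the lowest of the classes with at least 50 cells in each library. By number of molecules the picture was set by the abundance of the cells. FAP-like cells, which held 51.9% of all UMIs, held 61.0% ± 3.62 of the *Vegfa* UMIs, and myogenic-like cells held 13.3% ± 1.58. *Vegfa* (ENSMUSG00000023951) lies on chromosome 17 at 46016993-46032369, minus strand (GRCm38).

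*Vegfc* (ENSMUSG00000031520, chromosome 8, 54077606-54187096, plus strand) encodes the main ligand of FLT4. Endothelial-like cells had the highest level, 119 and 112 CPM in the WT libraries and 80.1 and 110 CPM in the KO libraries. Mast-like cells followed with 15.9, 44.4, 44.3 and 57.8 CPM in WT1, WT2, KO1 and KO2, a spread so wide that they could not be separated from tenocyte-like cells at 33.4 ± 7.15 CPM (SD, n = 4). Within the endothelium the gene was concentrated in arterial-like cells. In arterial-like cells led by *Cxcl12*, the level was 485, 494, 324 and 730 CPM. A small arterial-like group led by *Eln*, of 33 cells in all, had 756, 760, 615 and 462 CPM. Venous-like cells had 54.2 ± 13.3 CPM, and every library of either arterial-like group lay above every venous-like value. The *Cxcl12*-led cells made up 12.6% of endothelial-like cells and held 57.9% of the endothelial *Vegfc* UMIs, and the *Eln*-led cells made up 2.49% and held 16.2%. When each cell was thinned to 2000 UMIs, 44.6% ± 9.37 of *Cxcl12*-led arterial-like cells had a *Vegfc* UMI, against 3.02% ± 1.63 of capillary-like cells, at median depths of 8908.5 and 8299 UMIs before thinning. Without thinning the shares were 77.2% and 11.3%.

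*Vegfd* (ENSMUSG00000031380, chromosome X, 164373378-164402650, plus strand) encodes the second ligand of FLT4 and was nearly confined to FAP-like cells, which held 89.3% ± 1.19 of its UMIs. The level there was 22.1 and 21.7 CPM in WT and 25.6 and 22.0 CPM in KO, and no other named class passed 5.51 CPM in any library except the small neutrophil-like class, in which KO1 had 6.96 CPM. Among FAP-like cells, the cluster led by *Ly6a*, *Pi16* and *Wnt2* was the main site. It had 43.5, 38.1, 54.9 and 43.1 CPM and held 55.6% ± 1.80 of the FAP-like *Vegfd* UMIs with 29.5% of the cells. The cluster led by *Grm8* had 11.9 ± 0.687 CPM. The 4 values of the *Ly6a*-led cluster lay above every value of the 3 other FAP-like clusters.

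Levels in the finer populations, for all 10 genes, are collected in a heat map.

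**Figure D2:**
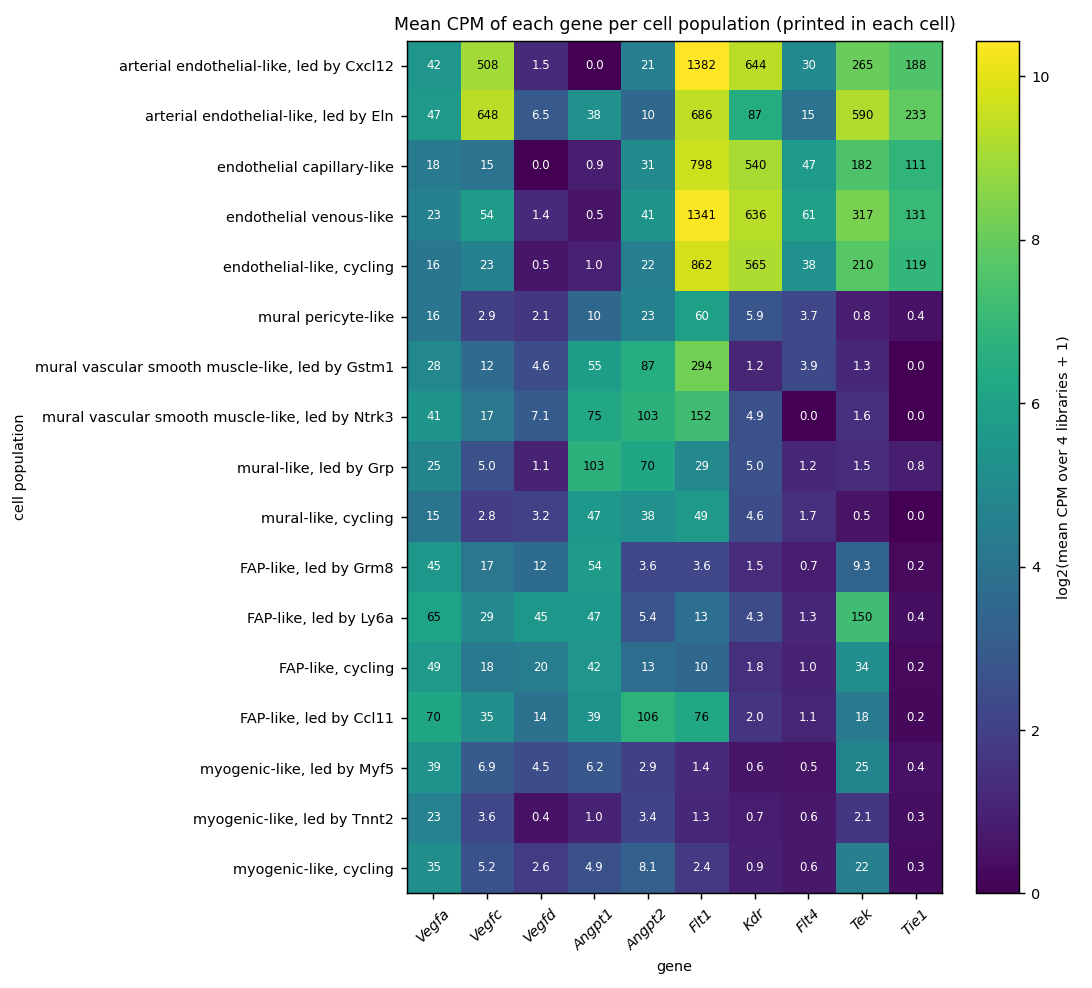
Mean CPM over the 4 libraries of each gene (columns) in the populations of the endothelial-like, mural, FAP-like and myogenic-like classes (rows), coloured by log2(mean CPM + 1), with mural standing for smooth muscle or pericyte-like. *Vegfc* peaked in arterial-like cells (648 and 508 CPM), *Angpt2* in *Ccl11*-led FAP-like cells (106 CPM), and *Tek* was present both in endothelial populations and in *Ly6a*-led FAP-like cells (150 CPM).

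*Angpt1* (ENSMUSG00000022309, chromosome 15, 42424723-42676977, minus strand), the agonist of TEK, was found at like levels in mural and FAP-like cells. Mural cells had 58.6, 45.4, 57.2 and 47.4 CPM in WT1, WT2, KO1 and KO2, and FAP-like cells had 59.3, 44.2, 45.3 and 43.9 CPM. The difference within libraries was 0.15 on the log2 scale (SE 0.07, adjusted p = 0.0716, edgeR quasi-likelihood test with the library as a block). With Scrublet-called doublets removed it was 0.18 (adjusted p = 0.0400), and with the looser cell filter it was 0.21 (adjusted p = 0.0086), so that whether it passed the threshold depended on which cells were kept. Without WT1 it also passed (0.20, adjusted p = 0.0429). Since FAP-like cells were more numerous, they held 77.4% ± 1.05 of the *Angpt1* UMIs and mural cells held 7.63% ± 1.30. Among mural cells the gene was uneven. The sub-population led by *Grp* had 107, 94.2, 105 and 103 CPM and held 37.2% of the mural *Angpt1* UMIs with 20.9% of the cells. Mural pericyte-like cells held only 5.15% ± 1.82 of these UMIs with 31.6% of the cells. Endothelial-like cells, which carry the receptor, had 3.59 ± 1.46 CPM. An RNA gene on the opposite strand, *Gm17473*, overlaps *Angpt1*.

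*Angpt2* (ENSMUSG00000031465, chromosome 8, 18690263-18741562, minus strand, within *Mcph1* on the other strand) is known as a product of activated endothelium, and in these data endothelial-like cells were only the third class by level. Mural cells had 51.2, 57.2, 54.4 and 44.5 CPM. Glial-like cells, which include Schwann cells of the nerves, had 36.8, 36.4, 36.0 and 34.6 CPM, all below every mural value. Endothelial-like cells had 23.3, 31.2, 26.0 and 24.8 CPM, all below every glial-like value. The order of these 3 classes was therefore the same in each library. FAP-like cells as a whole had 13.9 ± 0.487 CPM (SD, n = 4), but their *Ccl11*-led cluster had 107, 107, 94.3 and 114 CPM and held 59.5% ± 3.85 of the FAP-like *Angpt2* UMIs with 7.78% of the cells. This cluster was named from 9 FAP markers, but it also exceeded the other FAP-like cells in 8 of 12 smooth muscle or pericyte markers. *Acta2*, *Rgs5* and *Tagln* were among its leading genes. Among mural cells, the vascular smooth muscle-like groups led by *Ntrk3* and *Gstm1* had 103 ± 8.74 and 87.0 ± 10.8 CPM. Thinned to 2000 UMIs, 17.1% ± 0.796 of the *Ccl11*-led cells had an *Angpt2* UMI, and 47.4% did so without thinning.

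Each receptor was highest in endothelial-like cells, and they differed in where else they were found. *Kdr* and *Tie1* marked the endothelium most closely, *Flt1* was shared with mural cells, and *Tek* was shared with FAP-like cells. The promoter windows of these 4 receptor genes are shown because they are the genes that the endothelium held in common and that differed in where else they were found. Each window is the RefSeq sequence from 250 bases before to 50 bases after the transcript start (GRCm38.p6), written 5′ to 3′ on the strand of the gene, and capitals mark GGAA or its reverse complement TTCC, the core bound by ETS factors.
Kdr: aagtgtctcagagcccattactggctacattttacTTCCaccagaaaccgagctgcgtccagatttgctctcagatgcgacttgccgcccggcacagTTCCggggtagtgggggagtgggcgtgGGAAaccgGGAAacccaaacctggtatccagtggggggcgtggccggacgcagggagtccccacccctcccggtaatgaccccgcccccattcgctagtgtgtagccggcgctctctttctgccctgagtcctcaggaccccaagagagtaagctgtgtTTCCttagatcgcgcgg
Flt1: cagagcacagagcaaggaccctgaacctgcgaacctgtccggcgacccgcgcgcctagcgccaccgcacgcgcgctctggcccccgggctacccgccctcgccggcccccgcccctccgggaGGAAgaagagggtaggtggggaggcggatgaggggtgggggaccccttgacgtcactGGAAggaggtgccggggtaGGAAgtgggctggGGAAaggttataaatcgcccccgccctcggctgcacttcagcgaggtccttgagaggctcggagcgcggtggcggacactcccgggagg
Tek: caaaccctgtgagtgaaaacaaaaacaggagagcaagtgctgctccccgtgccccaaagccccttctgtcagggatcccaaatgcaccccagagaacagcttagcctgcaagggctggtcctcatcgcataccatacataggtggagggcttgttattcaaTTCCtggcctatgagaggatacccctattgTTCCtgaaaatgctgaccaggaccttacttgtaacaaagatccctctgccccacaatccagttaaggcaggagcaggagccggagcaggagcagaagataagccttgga
Tie1: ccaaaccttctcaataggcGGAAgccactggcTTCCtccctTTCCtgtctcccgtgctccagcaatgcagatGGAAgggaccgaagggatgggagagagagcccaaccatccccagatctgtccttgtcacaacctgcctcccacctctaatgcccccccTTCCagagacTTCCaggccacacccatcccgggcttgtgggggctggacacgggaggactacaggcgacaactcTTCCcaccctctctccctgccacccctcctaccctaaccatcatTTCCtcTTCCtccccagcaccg
These windows are at chr5:75978406-75978705 for *Kdr*, chr5:147725962-147726261 for *Flt1*, chr4:94739039-94739338 for *Tek* and chr4:118489800-118490099 for *Tie1*. They held 5, 4, 2 and 9 matches of the core on both strands. The core was present in 96.0% of all 32851 windows of the same length, so its presence does not set these genes apart. The longer motifs CAGGAAG and CCGGAAG, which both contain the core, had no match on either strand in the 9 windows found for 8 of the 10 genes, against 20.9% of all windows with either of them. A match is a description of the letters only, and windows for *Angpt1* and *Angpt2* were not examined.

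*Flt1* (ENSMUSG00000029648, chromosome 5, 147561604-147726011, minus strand) was highest in endothelial-like cells, with 919, 908, 900 and 872 CPM in WT1, WT2, KO1 and KO2. These cells held 72.7% ± 5.55 of its UMIs with 3.72% of all UMIs. Mural cells had the next level, 82.9 and 136 CPM in WT and 67.7 and 74.7 CPM in KO. Endothelial populations ranged from 686 ± 52.4 CPM in *Eln*-led arterial-like cells to 1382 ± 158 CPM in *Cxcl12*-led ones. Within the mural class, the vascular smooth muscle-like group led by *Gstm1* had 287, 390, 243 and 257 CPM. This group made up 13.9% of mural cells and held 42.8% of their *Flt1* UMIs. *Ccl11*-led FAP-like cells, the cluster with raised smooth muscle or pericyte markers, had 76.4 ± 20.3 CPM and held 44.8% of the FAP-like *Flt1* UMIs. In the neutrophil-like class, of 25 to 103 cells per library, KO2 had 112 CPM and the other libraries 10.7 to 17.8 CPM, and this class was not tested. Thinned to 2000 UMIs, 70.3% of endothelial-like and 12.4% of mural cells had a *Flt1* UMI, and unthinned shares were 91.0% and 30.9%. Median depths were 9332 UMIs per endothelial-like cell and 9808 per mural cell.

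*Kdr* (ENSMUSG00000062960, chromosome 5, 75932827-75978458, minus strand), the main signalling receptor for VEGFA, had 485, 542, 522 and 512 CPM in endothelial-like cells, which held 87.7% ± 1.95 of its UMIs. Tenocyte-like cells had 13.4 ± 1.21 CPM and FAP-like cells 2.40 ± 0.298 CPM. Within the endothelium, the *Eln*-led arterial-like group was low, with 107, 25.3, 96.1 and 120 CPM, against 644 ± 69.6 CPM in the *Cxcl12*-led arterial-like group and 636 ± 35.8 CPM in venous-like cells. The same *Eln*-led cells had the highest mean *Tek* and *Tie1* levels, 590 ± 129 and 233 ± 48.0 CPM. With 3 to 12 cells of this group per library, these values rest on few cells. Thinned to 2000 UMIs, *Kdr* was found in 56.3% of endothelial-like cells and in 0.423% of FAP-like cells, at median depths of 9332 and 10316 UMIs, and unthinned in 88.5% and 2.28%.

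*Flt4* (ENSMUSG00000020357, chromosome 11, 49609263-49652739, plus strand), the receptor of VEGFC and VEGFD, had 33.7, 41.3, 33.2 and 37.7 CPM in endothelial-like cells and at most 3.999 CPM in any other class. It was the least counted of the 10 genes, with 899 UMIs in all kept cells. Venous-like cells had 60.9 ± 22.4 CPM and *Cxcl12*-led arterial-like cells 30.3 ± 4.27 CPM, the reverse of the order of *Vegfc* in these cells. Lymphatic endothelium was not separated by the markers used here.

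*Tie1* (ENSMUSG00000033191, chromosome 4, 118471191-118490061, minus strand) was the receptor most restricted to endothelial-like cells, which held 93.8% ± 0.745 of its UMIs. The level was 131, 127, 107 and 120 CPM there, and no other class with at least 50 cells per library had a mean above 0.617 CPM. It was detected in all endothelial populations, from 111 ± 18.2 CPM in capillary-like to 188 ± 18.8 CPM in *Cxcl12*-led and 233 ± 48.0 CPM in *Eln*-led arterial-like cells.

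*Tek* (ENSMUSG00000006386, chromosome 4, 94739289-94874976, plus strand) had 236, 216, 204 and 209 CPM in endothelial-like cells, the highest of the classes, but these cells held 19.8% ± 1.79 of its UMIs. This share is that of the main cell filter, with 1342 endothelial-like cells. The looser cell filter gave 2046 of them, and the shares of *Tek* UMIs moved with the filter, as described at the end. FAP-like cells had 51.8, 52.3, 68.4 and 45.1 CPM and held 68.8% ± 2.55 of the *Tek* UMIs, and myogenic-like cells held 8.48% ± 0.803. The FAP-like signal was concentrated in the *Ly6a*-led cluster, at 150 and 134 CPM in WT and 197 and 117 CPM in KO. This cluster held 77.7% ± 2.29 of the FAP-like *Tek* UMIs with 29.5% of the cells. In the same cells *Tie1* was at 0.310, 0.496, 0.365 and 0.248 CPM and *Kdr* at 4.29 ± 0.356 CPM. Among thinned cells of the cluster, *Tek* was found in 20.0% and 19.7% of WT and 24.8% and 14.6% of KO cells. The share in *Grm8*-led FAP-like cells was 1.59% ± 0.544 and that in endothelial-like cells was 30.6%, at median depths of 9995, 9725 and 9332 UMIs for the *Ly6a*-led, *Grm8*-led and endothelial-like cells. Unthinned, the shares were 46.4% and 6.87% in these FAP-like clusters and 73.4% in endothelial-like cells. The *Ly6a*-led cells with a *Tek* UMI numbered 233, 267, 355 and 231 of 1164, 1358, 1431 and 1583 thinned cells. A *Tie1* UMI was found beside it in 0 of them in each library, and a *Kdr* UMI in 1, 2, 1 and 0. In the whole cluster, thinned cells with a *Tie1* UMI numbered 0, 0, 0 and 2 and those with a *Kdr* UMI 7, 7, 10 and 15. Endothelial-like cells with *Tek* in WT1 numbered 111, of which 28 also had *Tie1* and 58 also had *Kdr*. The summed level of the 8 endothelial markers was 46.0 to 48.8 CPM in FAP-like cells and 5781 to 6562 CPM in endothelial-like cells. In myogenic-like cells *Tek* was at 21.9, 20.7, 19.1 and 16.5 CPM, with 24.9 CPM in the *Myf5*-led cluster and 2.10 CPM in the *Tnnt2*-led cluster, also led by the fusion gene *Mymx*.

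**Figure D3:**
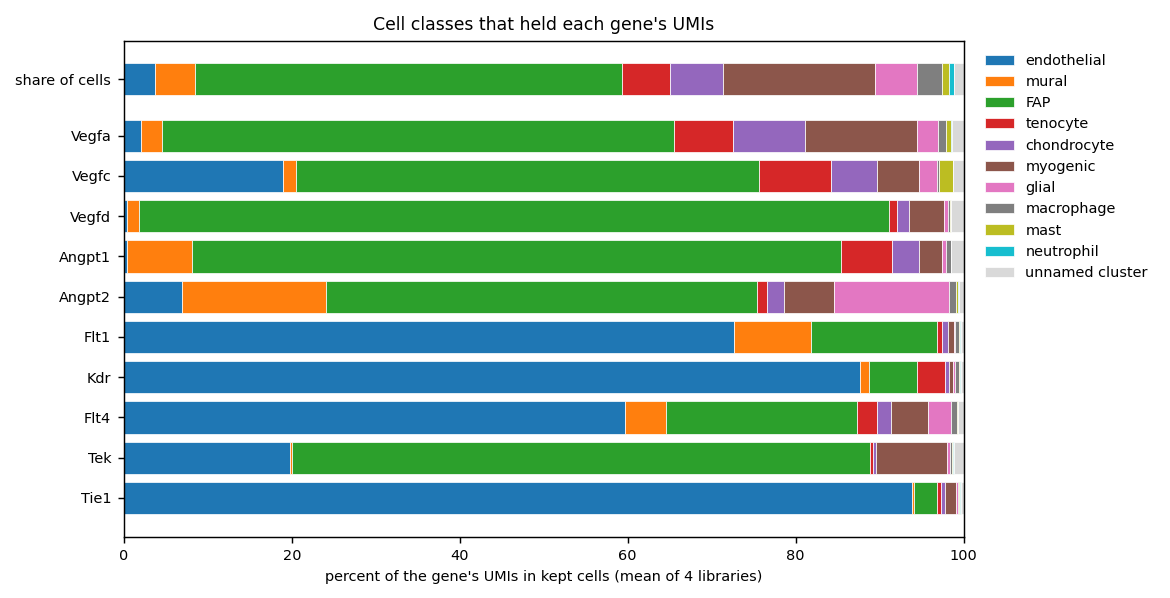
Share of each gene's UMIs held by each cell class, as the mean percent over 4 libraries, with the share of kept cells in the top bar and mural standing for smooth muscle or pericyte-like. With the main cell filter, endothelial-like cells held 93.8% of *Tie1*, 87.7% of *Kdr* and 72.7% of *Flt1* UMIs but 19.8% of *Tek*, of which FAP-like cells held 68.8%.

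Pairs of classes were also compared within libraries, by summing UMIs per class and library and testing all genes with the edgeR quasi-likelihood test, with the library as a block and Benjamini-Hochberg adjustment. These classes were clusters drawn from the same cells, and most genes differ between them, so the size of a difference is of more use than its p-value. Between endothelial-like and mural cells, 64.3% of 12581 genes passed an adjusted p of 0.05, and 9 of the 10 pathway genes did. In endothelial-like cells *Tie1* was higher by 8.46 (SE 0.22), *Kdr* by 6.74 (SE 0.09), *Tek* by 6.44 (SE 0.16), *Vegfc* by 3.997 (SE 0.11), *Flt4* by 3.96 (SE 0.19) and *Flt1* by 3.39 (SE 0.12) on the log2 scale. The angiopoietins lay on the mural side, *Angpt1* with a log2 difference of -3.80 (SE 0.15) and *Angpt2* with -0.94 (SE 0.09), as did *Vegfd* with -1.52 (SE 0.45), which did not pass without WT1 (-1.38, adjusted p = 0.0572). *Vegfa* did not pass, with 0.05 (SE 0.13, adjusted p = 0.783).

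Between mural and FAP-like cells, 63.8% of 16868 genes and 8 of the 9 pathway genes tested passed. The receptors *Flt1* (2.77, SE 0.14), *Flt4* (1.27, SE 0.29) and *Kdr* (1.05, SE 0.19) and the ligand *Angpt2* (1.92, SE 0.08) were higher in mural cells, in log2 units. *Tek* (-4.41, SE 0.15) and the ligands *Vegfd* (-2.52, SE 0.15), *Vegfc* (-1.67, SE 0.12) and *Vegfa* (-1.13, SE 0.06) were lower. Mural cells had 2.46 ± 1.59 CPM of *Tek*. In myogenic-like cells relative to FAP-like cells, 81.6% of 17218 genes passed, and all 9 pathway genes tested were lower. The log2 difference was between -3.18 (SE 0.10) for *Angpt1* and -0.49 (SE 0.04) for *Vegfa*, and *Flt4* (-0.68, SE 0.24, adjusted p = 0.0217) was the only one of these that did not pass with DESeq2 (adjusted p = 0.137), without WT1 (0.0601) or without KO2 (0.0943).

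The other genes of the pathway filled in the same map. *Nrp1*, a co-receptor of VEGFA, had 547 ± 26.4 CPM in endothelial-like cells and 220 ± 15.8 CPM in FAP-like cells, and *Nrp2*, the co-receptor preferred by VEGFC, had 263 ± 23.1 CPM in endothelial-like and 173 ± 12.6 CPM in glial-like cells. *Ptprb*, the phosphatase that opposes TEK, had 542 ± 30.9 CPM in endothelial-like cells and 12.2 ± 9.22 CPM in mast-like cells. Among the remaining ligands, *Vegfb* was highest in myogenic-like cells (61.8 ± 1.30 CPM), *Pgf*, a ligand of FLT1, in mural (20.0 ± 2.39 CPM) and FAP-like cells (19.2 ± 1.61 CPM), and *Angpt4* had no class above a mean of 1.23 CPM. VEGFC is matured by a protease, ADAMTS3, with its cofactor CCBE1. *Ccbe1* was highest in FAP-like cells (60.7 ± 2.70 CPM), whereas *Adamts3* was highest in tenocyte-like cells (101 ± 11.1 CPM). *Hif1a*, an oxygen-regulated activator of *Vegfa*, was highest in chondrocyte-like cells (246 ± 16.1 CPM), and its relative *Epas1* in endothelial-like cells (209 ± 20.3 CPM).

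Genes whose level followed a member most closely over 23 populations were taken from 13295 genes by Pearson correlation of log2(mean CPM + 1), given as a description because populations share libraries. *Tie1* was followed most closely by *Ccm2l* (r = 0.991), *Podxl* and *Rasip1*, and *Kdr* by *Robo4* (r = 0.974), *Klhl4* and *Dipk2b*. *Flt4* was nearest to *Nova2* (r = 0.959), *Arhgef15* and *Kank3*, and *Flt1* to *Adgrf5* (r = 0.927), *Plcb4* and *Emcn*. *Tek* had other neighbours, *Cd34* (r = 0.911), *Enpp3* and *Ly6c1*, of which *Cd34* is known in both endothelium and connective tissue progenitors. For *Angpt1* the nearest were *Cacna1c* (r = 0.907), *Pde3a* and *Nfatc4*, and for *Vegfc* they were *Synj2* (r = 0.896), *Smad6* and *Rassf9*. The weakest likeness was found for *Angpt2* (*Frmd4a*, r = 0.858, *Dynll1* and *Pawr*), *Vegfa* (*Sbsn*, r = 0.857, *Cnpy2* and *Bfar*) and *Vegfd* (*Scara5*, r = 0.851, *Calml4* and *Cdo1*).

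Turning to genotype, none of the 10 genes passed an adjusted p of 0.05 between KO and WT in any of 9 classes, in 63 tests with edgeR, of which 5 had an unadjusted p under 0.05. DESeq2 called none either, with 2 unadjusted p-values under 0.05. The share of all genes under this unadjusted cut is not given, here or for the sub-populations and interactions below. These counts therefore do not set the 10 genes apart from other genes. Fits without KO2 leave a lone KO library, and their effect sizes for *Vegfc* in endothelial-like and *Flt1* in mural cells are given below. In 13 sub-populations, tested after the classes had been seen, 83 tests called none and 3 had an unadjusted p under 0.05, and the share of all genes that passed was 0.0502% in capillary-like, 0.0231% in cycling endothelial-like, 0.0134% in *Gstm1*-led and 0.0116% in *Grp*-led mural cells and 0% in the 9 others. The 3 were *Vegfa* in capillary-like, *Flt1* in *Gstm1*-led vascular smooth muscle-like and *Kdr* in cycling FAP-like cells (log2 fold change 0.94, unadjusted p = 0.0334, edgeR). The *Kdr* value ranged from 0.75 to 1.12 when each library was left out. The share of all genes that passed in the classes was small as well, 0.017% in endothelial-like, 0.151% in mural and 0.0982% in mast-like cells and 0% in the 6 other classes. Genes filtered for low counts were not tested, which left 10 of the 10 genes in FAP-like, 9 in endothelial-like and in mural, 8 in tenocyte-like and in myogenic-like, 7 in chondrocyte-like, 5 in glial-like and in macrophage-like, and 2 in mast-like cells. *Vegfd* was the gene left out in endothelial-like cells, and *Tie1* in mural cells.

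**Figure D4:**
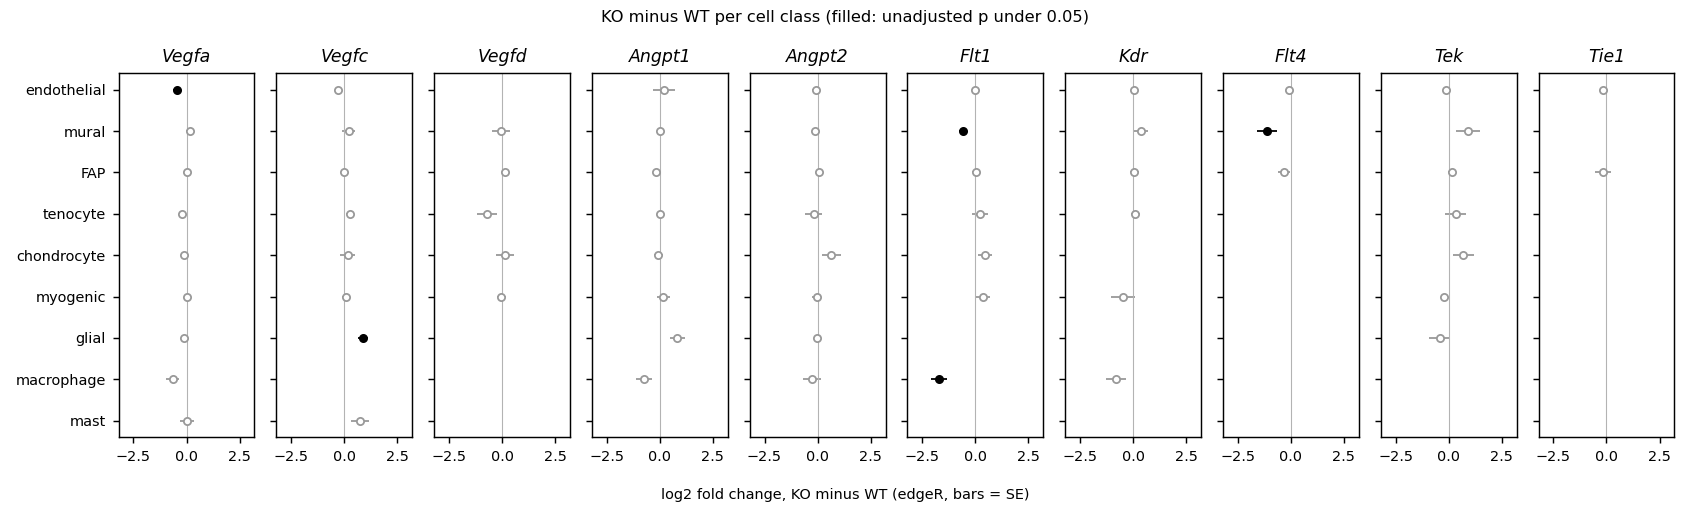
Log2 fold change of KO over WT for each gene in each class tested, with bars of 1 standard error from the edgeR fit on 2 libraries per genotype, and mural standing for smooth muscle or pericyte-like. Filled points had an unadjusted p under 0.05, as *Flt1* in mural (-0.59) and macrophage-like cells (-1.70), *Flt4* in mural cells (-1.12), *Vegfa* in endothelial-like cells (-0.45) and *Vegfc* in glial-like cells (0.87), and none passed the adjusted threshold.

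The receptors in endothelial-like cells differed little between genotypes. The log2 fold change was -0.03 (SE 0.08) for *Flt1*, 0.02 (SE 0.08) for *Kdr*, -0.07 (SE 0.15) for *Flt4*, -0.12 (SE 0.09) for *Tek* and -0.18 (SE 0.10) for *Tie1*, each with an adjusted p of 0.999. In 5 of the 9 genes tested there, *Flt1*, *Tek*, *Tie1*, *Vegfa* and *Vegfc*, the KO libraries were both lower than either WT library, and in none were both higher. Of all genes tested in this class, 16.7% had both KO libraries below and 13.7% had both above. The differences behind this order were small, as with *Flt1*, whose 4 libraries spanned 872 to 919 CPM. *Vegfa* had the largest of them relative to its error, with 27.1 and 29.96 CPM in WT and 22.5 and 18.7 CPM in KO, a log2 fold change of -0.45 (SE 0.17, unadjusted p = 0.0242, adjusted p = 0.999, edgeR). In capillary-like cells the difference in *Vegfa* was -0.86 (unadjusted p = 0.045, edgeR), and it ranged from -1.47 to -0.53 when each library was left out. It rests on few counts. Endothelial-like cells had 94, 100, 97 and 68 *Vegfa* UMIs in WT1, WT2, KO1 and KO2. Capillary-like cells held 22.3%, 16.0%, 20.6% and 10.3% of these. *Vegfc* had a log2 fold change of -0.28 (SE 0.14, adjusted p = 0.999), set mainly by KO1, and without KO2, with KO1 as the lone KO library, it was -0.52. *Angpt2* had -0.09 (SE 0.17), with overlapping libraries. The 2 genes that passed in this class were *Ccl21a*, from the list of lymphatic markers, and *Myog*. Their log2 fold changes were 6.28 and 3.54 (adjusted p = 0.00293 for each, edgeR), and neither passed with mixed sub-clusters removed. Their bearing on the 10 genes was not tested. The summed level of 12 FAP markers in endothelial-like cells was 1631 and 1182 CPM in WT and 1935 and 2264 CPM in KO, higher in both KO libraries. The class included mixed sub-clusters of 97 and 21 cells that exceeded its other cells in 10 and 11 of 12 FAP markers. Scrublet called 58.8% and 19.0% of them doublets. They held 19, 17, 32 and 29 and 0, 2, 2 and 17 cells of WT1, WT2, KO1 and KO2. Beyond the fit with mixed sub-clusters removed, the part of these FAP signals in the values above was not tested.

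Mural cells had the lowest adjusted p of the 10 genes. *Flt1* was at 82.9 and 136 CPM in WT and 67.7 and 74.7 CPM in KO, so that each KO value was lower than each WT value and the WT values were far apart. The log2 fold change was -0.59 (SE 0.16, unadjusted p = 0.0024, adjusted p = 0.322, edgeR). Leaving out WT2 changed it to -0.21, while leaving out WT1 made it -0.91. It was -0.52 without KO1 and -0.67 without KO2. Each of these fits has a lone library in an arm, so only effect sizes are given. The size of the *Flt1* difference therefore rests on WT2. In *Gstm1*-led vascular smooth muscle-like cells, where the gene was highest among mural cells, the log2 fold change was -0.42 (unadjusted p = 0.0264). *Flt4* in mural cells had 2.65 and 3.999 CPM in WT and 1.62 and 1.34 CPM in KO, a log2 fold change of -1.12 (unadjusted p = 0.0306, adjusted p = 0.853) that rests on 13, 17, 8 and 6 UMIs in WT1, WT2, KO1 and KO2. *Kdr* went the other way, with both KO libraries above (0.39, SE 0.33). Both KO libraries were below both WT libraries in 18.9% of all genes of this class and above in 15.3%. The FAP marker sum in mural cells was 2720 and 2263 CPM in WT and 4229 and 3386 CPM in KO. The class included a mixed sub-cluster of 95 cells that exceeded the other mural cells in 12 of 12 FAP markers. Scrublet called 57.9% of its cells doublets, and it held 15, 10, 41 and 29 cells of WT1, WT2, KO1 and KO2. The class was also fitted with mixed sub-clusters removed, with the count of genes called given below. The part of these FAP signals in the values above was not otherwise tested. The 8 endothelial markers summed to 268 and 278 CPM in WT and 275 and 245 CPM in KO. *Angpt1* (0.02, SE 0.14) and *Angpt2* (-0.11, SE 0.13), the ligands of these cells, had overlapping libraries.

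In macrophage-like cells, all 5 genes tested had each KO value lower than each WT value, as did 19.8% of all genes there. *Flt1*, which monocytes and macrophages are known to carry, was at 9.67 and 10.1 CPM in WT and 2.52 and 3.36 CPM in KO, a log2 fold change of -1.70 (SE 0.37, unadjusted p = 0.00193, adjusted p = 0.996). These levels rest on few counts, 28 and 31 UMIs in WT and 8 and 12 in KO. Without the filter on low counts the adjusted p was 0.0172. The endothelial marker sum in these cells was 57.0 and 71.0 CPM in WT and 56.4 and 59.0 CPM in KO. In glial-like cells *Vegfc* was at 5.68 and 5.87 CPM in WT and 11.6 and 9.38 CPM in KO, a log2 fold change of 0.87 (SE 0.23, unadjusted p = 0.00507, adjusted p = 0.996), with 14.5% of all genes having both KO libraries above. *Angpt1* was also above there, at 3.07 and 2.08 CPM in WT and 4.40 and 4.81 CPM in KO (log2 fold change 0.82, SE 0.36, unadjusted p = 0.0505, adjusted p = 0.996), and *Angpt2* was below (-0.04, SE 0.12), as were 17.4% of all genes, so that 3 of the 5 genes tested in this class did not overlap. In the classes not yet described, both KO libraries lay below for *Vegfa* and *Vegfd* in tenocyte-like cells (19.6% of all genes) and for *Tek* and *Vegfd* in myogenic-like cells (23.4%), and above for *Flt1* and *Angpt2* in chondrocyte-like cells (12.9%). None of the genes lay above in the first 2 of these classes (11.8% and 10.2% of all genes) or below in chondrocyte-like cells (15.6%).

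The main sources of the ligands showed no difference that passed. *Vegfa* in chondrocyte-like cells differed by -0.12 (SE 0.15) on the log2 scale, *Vegfd*, which is X-linked, in FAP-like cells by 0.16 (SE 0.10, and 0.26 without KO2) and *Vegfa* in FAP-like cells by 0.04 (SE 0.10). *Tek* in FAP-like cells differed by 0.16 (SE 0.18), and in the *Ly6a*-led cluster by 0.16 (SE 0.23), where KO1 was the highest library and KO2 the lowest. In FAP-like cells 2 of the 10 genes, *Flt4* and *Tie1*, had both KO libraries below, which was so for 21.9% of all genes there, and none had both above (9.04% of all genes). The SEs leave room for differences of a size that 2 libraries per genotype could not have shown. An interaction term asked whether the genotype effect in endothelial-like cells differed from that in FAP-like cells, which 0.0788% of 17769 genes passed and none of the 10. For myogenic-like against FAP-like cells no gene passed (0%). Among 20 such tests of the 10 genes, 3 had an unadjusted p under 0.05 with edgeR. Interactions for 5 further pairs of classes, chosen after their values had been seen, were passed by 0.0522% of genes for chondrocyte-like against endothelial-like cells, 0.101% against mural, 0.0142% against glial-like and 0% against macrophage-like cells, by 0.00741% for glial-like against endothelial-like cells, and by none of the 10 genes.

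Of the other listed genes, *Btg2* and *Klf2* passed, both in mural cells. *Klf2*, a flow-responsive transcription factor of the endothelium, was at 174 and 200 CPM in WT and 262 and 247 CPM in KO (log2 fold change 0.46, SE 0.09, adjusted p = 0.0447, edgeR), and *Btg2*, from a list of genes induced by tissue dissociation, was at 283 and 286 CPM in WT and 400 and 423 CPM in KO (0.55, SE 0.08, adjusted p = 0.00792). With mixed sub-clusters removed, neither passed (adjusted p = 0.993 and 0.246), and *Klf2* did not pass without WT1 (0.115). The dissociation list as a whole had positive log2 fold changes for 13 of 15 genes in mural cells (median 0.20), 13 of 15 in FAP-like cells (median 0.22) and 14 of 15 in endothelial-like cells (median 0.17), against medians of -0.000786 to 0.00242 over all genes tested in these classes. It was positive for 14 of 15 in macrophage-like (median 0.15), 9 of 15 in myogenic-like (0.034) and 8 of 15 in mast-like cells (0.051). The balance was negative in chondrocyte-like and tenocyte-like cells, with 4 of 15 positive in each (medians -0.12 and -0.05), and in glial-like cells, with 6 of 15 (-0.035). Its part in the values of the 10 genes was not tested. In endothelial-like cells no listed gene passed with all libraries and the filter on low counts. *Pgf* was at 20.5 and 16.8 CPM in WT and 7.66 and 11.6 CPM in KO (-0.96, SE 0.26, unadjusted p = 0.00383, adjusted p = 0.864), and its log2 fold change was -1.27 without KO2. The genes with the smallest p of the other lists were *Btg2* (0.46, SE 0.11), *Klf2* (0.24, SE 0.12), *Epas1* (-0.15, SE 0.11), *Adm* (-0.20, SE 0.22) and *Adamts3* (-0.28, SE 0.41). *Btg2* was at 0.60 without KO1, and it passed without a filter (0.47, adjusted p = 0.0298). The 13 genes of the hypoxia list that were tested had a median log2 fold change of 0.04 there, with 9 positive, and the 5 oxygen-sensing genes had a median of -0.05, with 2 positive.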

How the data were processed

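Cells from fetal leg muscle were profiled in 2 WT and 2 KO libraries, which were grouped by their labels. Per the labels, the authors ran Cell Ranger 7.2.0 against mm10, and the deposited matrices hold UMI counts without normalisation. Intronic reads are counted by default in this version, and the setting used is not given in the sources used here. The 10 genes and all lists were chosen with earlier results of these data known.

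The cell filter followed the study's methods (1000 to 6000 genes, 1000 to 25000 UMIs, mitochondrial share under 8%). Doublets were left in, and Scrublet called 168, 135, 251 and 244 cells in WT1, WT2, KO1 and KO2, whose removal was an alternative. Leiden clustering (scanpy 1.11.5, igraph 0.11.9, scikit-learn 1.9.0, resolution 0.3, 3000 variable genes, 30 components, 20 neighbours) left out 66 listed genes, without batch correction. Clusters were named from markers, of which at least 3 and 50% of the list had to be 2-fold higher than in all other cells and present in 10% of the cluster, and the remaining clusters were FAP-like where at least 6 FAP markers reached 25% of the highest cluster. This naming rule was set after the data were seen, and 1 cluster of 456 cells stayed unnamed. Names are rebuilt and can differ from those of the study.

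UMIs were summed per library and class, for classes with at least 50 cells per library, and tested with edgeR 4.0.16 (quasi-likelihood, TMM, filterByExpr, Benjamini-Hochberg over all genes, threshold 0.05) in R 4.3.3. The SE of an edgeR fit was derived from its test, as the absolute log2 fold change divided by the square root of F. Alternatives were DESeq2 1.42.0, RLE factors, no filter or a filter of 50 UMIs, a replicate block, leaving out each library, resolution 1 and a looser cell filter (500 to 7500 genes, at least 500 UMIs, under 15% mitochondrial). Tests of sub-populations, removal of mixed sub-clusters and further interactions were chosen after seeing the data. Scripts were tested on simulated data. The text names the 10 genes in their highest class, the receptors and *Angpt2* in endothelial-like cells, members with an unadjusted p under 0.05, listed genes that passed and otherwise the smallest p of each list in endothelial-like cells, and the 3 genes most like each member with at least 10 CPM somewhere.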

Additional observations from a re-analysis of the deposited data

Results flagged for a closer look

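In a few cases the KO libraries were both higher than either WT library in one class and both lower in a different class, with a mean of at least 5 CPM in each. Of all genes, both KO libraries were above in 12.9% in chondrocyte-like and 14.5% in glial-like cells. They were below in 16.7% in endothelial-like, 17.4% in glial-like, 18.9% in mural and 19.8% in macrophage-like cells. The share of all genes with opposite directions in a pair of classes was not examined. The difference between the genotype effects was then tested by an interaction term in edgeR with the library as a block, for pairs of classes chosen after their values had been seen.

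*Vegfc* was above WT in glial-like and below it in endothelial-like cells. The *Cxcl12*-led arterial-like cells, in which its levels overlapped between genotypes, numbered 46, 44, 45 and 33 in WT1, WT2, KO1 and KO2. Endothelial-like cells numbered 307, 321, 386 and 328 in the same order. The part of this make-up in the endothelial-like difference was not tested. The genotype effects on *Vegfc* in glial-like and endothelial-like cells differed by 1.17 on the log2 scale (SE 0.28, unadjusted p = 0.00138, adjusted p = 0.567, edgeR). In this fit 0.00741% of genes passed. *Flt1* was above WT in chondrocyte-like cells, at 4.88 and 5.28 CPM in WT and 5.35 and 7.50 CPM in KO, and below it in mural, macrophage-like and endothelial-like cells. The chondrocyte-like values rest on 20, 39, 8 and 71 UMIs in WT1, WT2, KO1 and KO2. The effect in chondrocyte-like cells differed from that in mural cells by 1.09 (SE 0.29, unadjusted p = 0.00167, adjusted p = 0.396), where 0.101% of genes passed. It differed from that in macrophage-like cells by 2.05 (SE 0.51, unadjusted p = 0.00208, adjusted p = 1.00), where 0% passed, and from that in endothelial-like cells by 0.51 (unadjusted p = 0.0745, adjusted p = 1.00), where 0.0522% passed. *Angpt2* was above WT in chondrocyte-like cells, with 4.15 and 4.33 CPM in WT and 11.4 and 4.86 CPM in KO, and below it in glial-like cells. The effects differed by 0.64 (unadjusted p = 0.119, adjusted p = 1.00), where 0.0142% passed. None of these differences passed an adjusted p of 0.05, and KO1, which gave the highest *Angpt2* value, held 182 chondrocyte-like cells against 396 to 1029 in the other libraries.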

How the results depend on the processing

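Genes called between KO and WT were few and moved with the setting. Without a filter on low counts they numbered 55 in chondrocyte-like, 58 in endothelial-like, 49 in glial-like, 130 in macrophage-like, 0 in mast-like and 142 in mural cells, against 0, 2, 0, 0, 7 and 19. With the replicate block they numbered 17, 14, 100, 8, 0 and 154 in these classes, 16 in myogenic-like and 58 in tenocyte-like cells. The replicate numbers name libraries only. Over the genes of a class, the log2 difference of WT1 from WT2 correlated with that of KO1 from KO2 by 0.0372 to 0.195. Of the 10 genes, the block called only *Flt1* in mural cells (-0.57, adjusted p = 4.08e-06), and no filter called it (-0.59, adjusted p = 4.57e-05) and *Flt1* in macrophage-like cells, so 1 gene in each class. DESeq2 called 8 genes in FAP-like, 4 in endothelial-like, 2 in macrophage-like, 22 in mast-like and 1 in tenocyte-like cells. Removal of doublets gave 1 in macrophage-like, 3 in mast-like and 8 in mural cells. The looser cell filter gave 0 in endothelial-like, 3 in glial-like, 0 in mast-like and 4 in mural cells, resolution 1 gave 1 in endothelial-like cells, and the stricter filter gave 4 in endothelial-like and 12 in mast-like cells. Removal of mixed sub-clusters gave 0 in endothelial-like and 1 in mural cells. For the interaction of endothelial-like with FAP-like cells (14 genes), DESeq2 gave 6, doublet removal 38, no filter 102 and RLE factors 7, and for myogenic-like with FAP-like cells (0 genes), DESeq2 gave 3, no filter 35 and RLE factors 1. The causes were not tested.

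When each library was left out in turn, with the lone library of an arm assumed to vary like the other arm, the genes called ranged from 0 to 7 in FAP-like, 0 to 39 in chondrocyte-like, 5 to 145 in endothelial-like, 1 to 24 in glial-like, 0 to 23 in macrophage-like, 0 to 214 in mast-like, 0 to 1 in myogenic-like, 90 to 164 in mural and 0 to 8 in tenocyte-like cells. The interactions ranged from 7 to 119 and from 0 to 6. In endothelial-like, mast-like and mural cells, some of these fits also called a gene of the 10. Each fit has a lone library in an arm, so no such call is read as a result. *Klf2* in mural cells did not pass with DESeq2 (adjusted p = 0.0821). Directions that reversed were those of values close to 0 or, for *Adamts3* (-0.28, SE 0.41) and *Adm* (-0.20, SE 0.22), smaller than their SE. Under the looser cell filter these were *Adamts3* (0.19), *Adm* (0.20) and *Angpt2* (0.14) in endothelial-like cells, *Angpt1* in mural cells (-0.063) and *Vegfa* between endothelial-like and mural cells (-0.0065), and with mixed sub-clusters removed *Flt4* in endothelial-like cells (0.034). Leaving out a library moved *Adamts3* from -0.64 to 0.21, *Adm* from -0.56 to 0.27, *Angpt2* from -0.27 to 0.12, *Flt4* from -0.20 to 0.066 and *Kdr* from -0.043 to 0.090 in endothelial-like cells, *Angpt1* from -0.16 to 0.23 and *Angpt2* from -0.26 to 0.018 in mural cells, *Vegfa* from -0.29 to 0.038 in chondrocyte-like cells, and *Vegfa* between endothelial-like and mural cells from -0.10 to 0.15. Of the shares of UMIs in a leading class, those of *Flt4* and *Tek* moved most, from 59.7% to 74.0% and from 68.8% to 59.6% with the looser cell filter.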
